A study of Bos taurus with 42 samples.

Results

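The entries described here are the bovine transfer RNA (tRNA) fragments that the deposited small RNA table names by an Ensembl transcript and gene rather than by a tRNA number. They were selected by a rule on annotation alone, which was set with earlier results of these data known. Under it, the first annotation of the entry names a tRNA fragment class (tRF or tR-half) and an Ensembl transcript. The rule found 100 of 12345 entries, among 907 entries of tRNA origin. An entry pools every read with the same annotation, so it is a fragment class of 1 tRNA rather than 1 sequence. The 100 entries came from 22 parent genes, with 2 to 7 entries each. RefSeq lists 22 tRNA genes on the bovine mitochondrial chromosome of assembly ARS-UCD2.0, so the number of parents equals the size of the mitochondrial set. None of the 22 identifiers could be matched to RefSeq by ID, and the table does not state the chromosome of a parent. The only entry that joins a parent to mitochondrial ribosomal RNA is one also annotated as the leader of the parent ENSBTAG00000043555. The identifiers of the mitochondrial rRNA genes, ENSBTAG00000043567 and ENSBTAG00000043570, lie within the run of parent identifiers, from ENSBTAG00000043544 to ENSBTAG00000043583. Some entries also name a flank of another parent, such as a misc-tRF of ENSBTAG00000043544 that is also the leader of ENSBTAG00000043551. The mitochondrial origin of the entries is therefore a likely reading of the annotation, and the entries are called Ensembl-named fragments below.

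Mitochondrial tRNAs are transcribed as parts of long polycistronic RNAs in which they lie between the ribosomal and messenger RNAs, and cleavage at both ends of each tRNA releases its neighbours. The CCA end is added afterwards, so a 3′ fragment that ends in CCA comes from a processed tRNA. Cleavage in the anticodon loop gives a 5p-tR-half and a 3p-tR-half, and shorter pieces are called tRFs. Mammalian embryos inherit their mitochondria from the oocyte, which in nuclear transfer is also the recipient cell.

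Small RNA of under 200 nt was sequenced in 42 libraries of 12 groups. Oocytes had been matured in vitro to metaphase II (n = 3). Embryos were made from such oocytes by in vitro fertilisation (IVF) with Holstein bull semen or by somatic cell nuclear transfer (NT), and both kinds were cultured with bovine cumulus cells. NT donors were serum-starved ear fibroblasts of passages 4 to 5 from 1 Brahma and Spanish cross bull, and fibroblasts were also sequenced by themselves (n = 3). IVF libraries numbered 4 at the 2-cell stage, 3 at the 8-cell stage, 4 at the morula, 3 at the blastocyst and 4 for cells derived from blastocysts. NT libraries numbered 4, 4, 3, 4 and 3 at the same stages. Embryos were collected in pools of 20, at 2, 3, 6 and 8 days after fertilisation or transfer. The labels do not say which libraries came from separate cultures, so the p-values measure only the spread between these libraries, which may be partly technical. In pools of whole embryos, fewer cells of a type and less of an RNA per cell cannot be told apart.

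The listed reads numbered 25119 to 3081186 per library, of which 15 to 21832 belonged to the 100 entries. NT 2-cell replicate 4 held all 12345 entries of the table, and so all 100 of those described here, whereas the other libraries held 4 to 95 of the 100. Every listed entry was thus found in it, and the shares below are shares of listed reads. IVF morula replicate 3 held only 15 reads of the 100 entries among 25119 listed reads, a share of 0.0597% (95% Wilson interval 0.0362% to 0.0985%, counting error only), and it was left out of shares within the fragments. IVF morula replicate 1 had the highest level of the fibroblast marker miRNAs among the embryo libraries, at 13230 CPM of listed reads against at most 678 in the other embryo libraries, and the part this has in its tRNA fragments was not tested. In that library piRNA-cluster entries held 0.143% and bovine miRNAs 64.1% of listed reads. In IVF morula replicates 2 and 4 piRNA-cluster entries held 80.5% and 74.4%, and bovine miRNAs 4.58% and 4.15%. IVF morula replicate 1 was kept in the shares and fits unless stated. The tissue markers followed the labels in part. The fibroblast list was at 1684 CPM or more in fibroblasts and 11437 or more in derived cells, and the epithelial list was at 0 to 0.694 CPM in fibroblasts. Beside this, the epithelial list reached 10811 CPM in an IVF morula library and was at 0 in an IVF derived cell library. The cumulus list reached 53048 CPM in an IVF morula and 27830 in an IVF 2-cell library, and the single pluripotency miRNA with an entry reached 310 CPM in a fibroblast library, above the NT morulae. The part of these levels in the fragments was not tested.

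Counted over all libraries, the Ensembl-named fragments held 266046 reads. Of the 100 entries, 22 were internal pieces (misc-tRF), 21 were 3′ tRFs with CCA, 19 were 5′ tRFs, 18 were 3p-tR-halves, 16 were 5p-tR-halves and 4 were 3′ tRFs without CCA. Levels were very uneven. Only 1 entry, the misc-tRF of ENSBTAG00000043545, was found in all 42 libraries. A further 35 entries were found in fewer than 21 libraries, and 18 never exceeded 10 reads. The smallest listed value stands for 2 reads, so an entry at 0 may have had 0 or 1 read. The entry with the highest mean over the 42 libraries was the 5p-tR-half of ENSBTAG00000043549, at 8.58 on the deposited log2 scale, followed by the 3p-tR-half of ENSBTAG00000043545 at 8.42, its misc-tRF at 8.03 and the 3p-tR-half of ENSBTAG00000043547 at 8.03. The lowest of the 12 highest entries, the 5p-tRF of ENSBTAG00000043562, was at 6.66.

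How the summed level moved through development depended on the scale. As a share of all listed reads, the Ensembl-named fragments were highest in blastocysts. They made up 0.739% ± 0.273 (SD, n = 3) in oocytes, 0.717% ± 0.395 (n = 4) in IVF and 0.487% ± 0.175 (n = 4) in NT 2-cell embryos, and 0.477% ± 0.184 (n = 3) and 0.454% ± 0.0758 (n = 4) in IVF and NT 8-cell embryos. NT morulae held 1.05% ± 0.261 (n = 3). IVF morulae held 0.647% ± 0.430 (n = 4), or 0.843% ± 0.219 without replicate 3 and 0.757% ± 0.226 (n = 2) without replicates 1 and 3. The share was 1.72% ± 0.658 (n = 3) in IVF and 2.29% ± 0.442 (n = 4) in NT blastocysts. All 7 blastocyst libraries, from 1.33% to 2.82%, were above all 15 libraries of 2-cell and 8-cell embryos, which reached at most 1.24%. In derived cells the share was 0.824% ± 0.525 (n = 4) for IVF and 0.535% ± 0.243 (n = 3) for NT, and in fibroblasts 0.454% ± 0.276 (n = 3).

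As a share of all tRNA-derived reads, the group mean of the same fragments was highest in oocytes. There they made up 17.6% ± 6.50 of tRNA-derived reads, against 11.9% ± 6.71 in IVF and 10.5% ± 6.58 in NT 2-cell embryos, 2.95% ± 1.91 and 6.07% ± 3.08 in 8-cell embryos, 4.20% ± 2.88 and 5.29% ± 1.76 in blastocysts, and 0.840% ± 0.589 in fibroblasts. The lowest oocyte library, at 13.1%, was above every blastocyst, derived cell and fibroblast library, the highest of which was at 7.58%. IVF 2-cell replicates 1 and 2, at 18.7% and 16.0%, and NT 2-cell replicate 2, at 19.6%, lay among the oocyte libraries. On the deposited scaling, the summed normalised reads were 14882 ± 3778 in oocytes, 5202 ± 1452 in IVF and 5341 ± 1291 in NT blastocysts, 2319 ± 426 and 1664 ± 530 in derived cells, and 1202 ± 545 in fibroblasts. The 2-cell libraries lay on both sides of the oocyte libraries, which ran from 10590 to 17702. IVF 2-cell replicates 1 to 4 were at 21609, 21377, 3256 and 6172. NT 2-cell replicates 1 to 4 were at 8486, 19535, 4029 and 8204. The 3 scales share their numerator. Over the same groups piRNA-cluster reads made up 89.9% ± 1.73 of listed reads in oocytes, 27.5% ± 5.97 in IVF and 20.8% ± 7.66 in NT blastocysts, and at most 0.895% in a fibroblast library, while tRNA-derived reads made up 4.34% ± 1.72 in oocytes and 46.4% ± 12.5 and 45.0% ± 7.18 in blastocysts. Which scale follows the amount per cell cannot be told apart from these values, and no test was made of the sums.

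**Figure D1:**
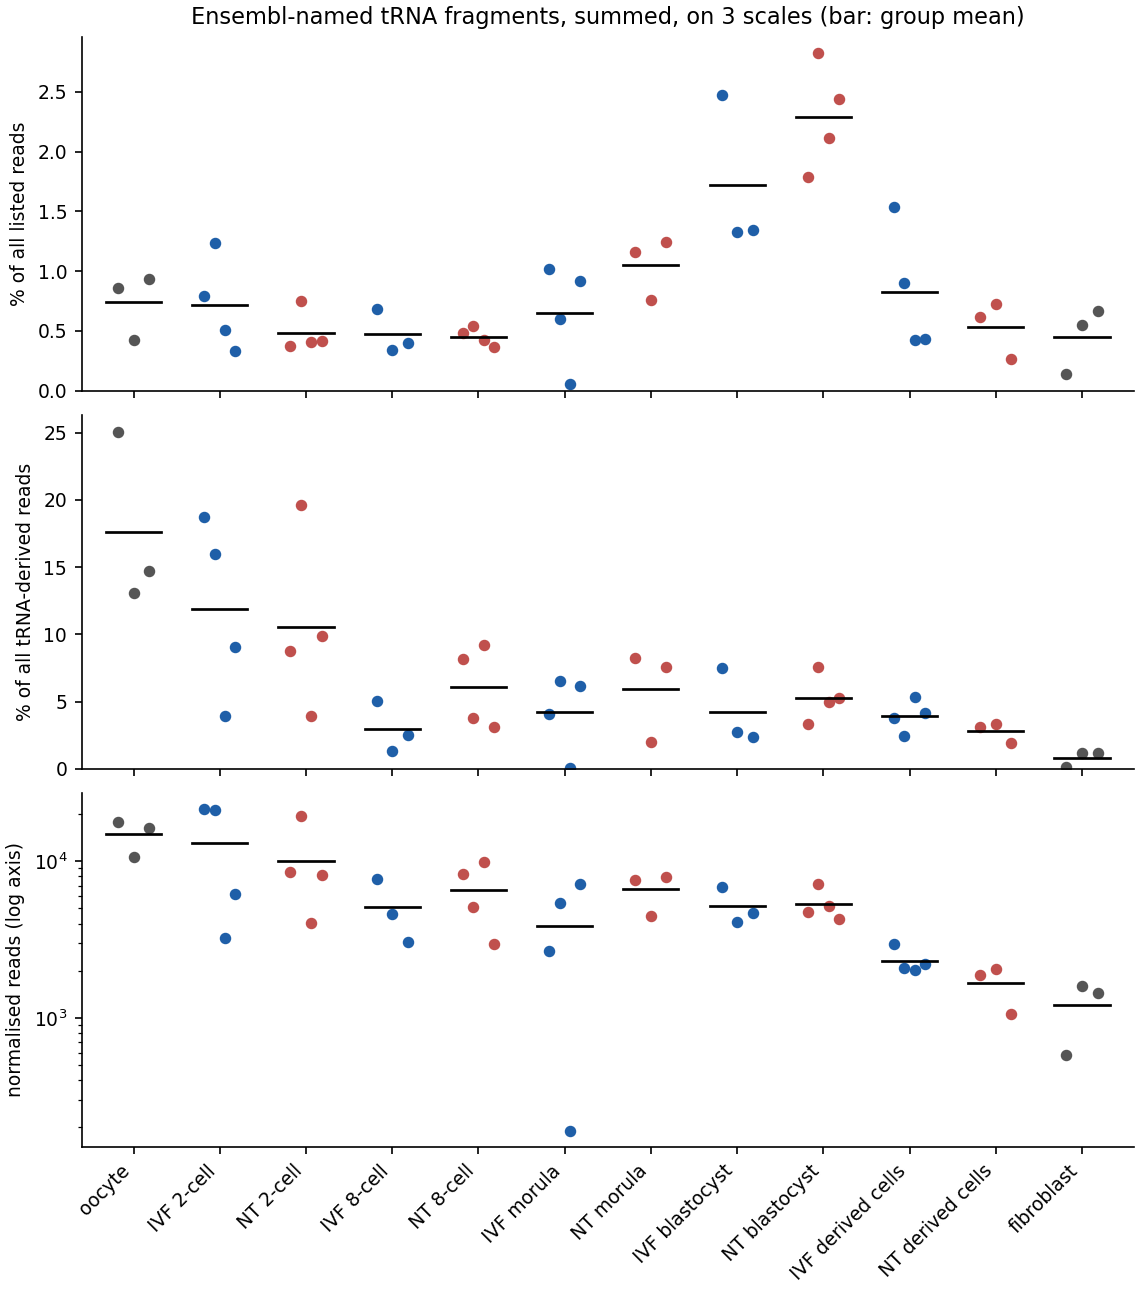
Summed Ensembl-named tRNA fragments in each of the 42 libraries, as a percent of all listed reads, as a percent of tRNA-derived reads, and as normalised reads on a log axis. Points are libraries (blue IVF, red NT, grey oocytes and fibroblasts) and bars are group means. By group mean, blastocysts are highest in the top panel, at 1.72% and 2.29%, and oocytes are highest in the other panels. Some 2-cell libraries lie among or above the oocyte libraries in those panels.

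The comparison of scales is plotted by library for the 12 groups: the blastocyst libraries stand above the earlier stages in the share of listed reads, and the oocyte libraries stand above the blastocyst libraries in the share of tRNA-derived reads. On that scale IVF blastocysts and IVF 8-cell embryos overlapped.

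The Ensembl-named fragments held a larger share of 3p-tR-halves than the 469 entries that carry a tRNA number. These numbered fragments had group means of 0.250% to 6.57% of their reads in 3p-tR-halves, with up to 20.0% in a single library. The Ensembl-named fragments had group means of 17.9% to 37.3%, with 12.2% to 51.7% in single libraries, so the library ranges overlapped. The 5p-tR-halves held 44.7% ± 21.6 of the Ensembl-named fragment reads in oocytes, with a library range of 21.1% to 63.5%, and 19.9% to 31.8% in the embryo groups. They held 10.4% ± 6.57 in fibroblasts. Fibroblasts had the largest share of internal pieces, 30.4% ± 16.2, against 5.49% ± 1.45 in oocytes and 7.66% to 12.4% elsewhere. CCA-ended 3′ tRFs ranged from 9.92% ± 5.89 in oocytes to 25.4% ± 2.88 in fibroblasts. The 4 entries of 3′ tRFs without CCA held at most 0.250% in any group mean.

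**Figure D2:**
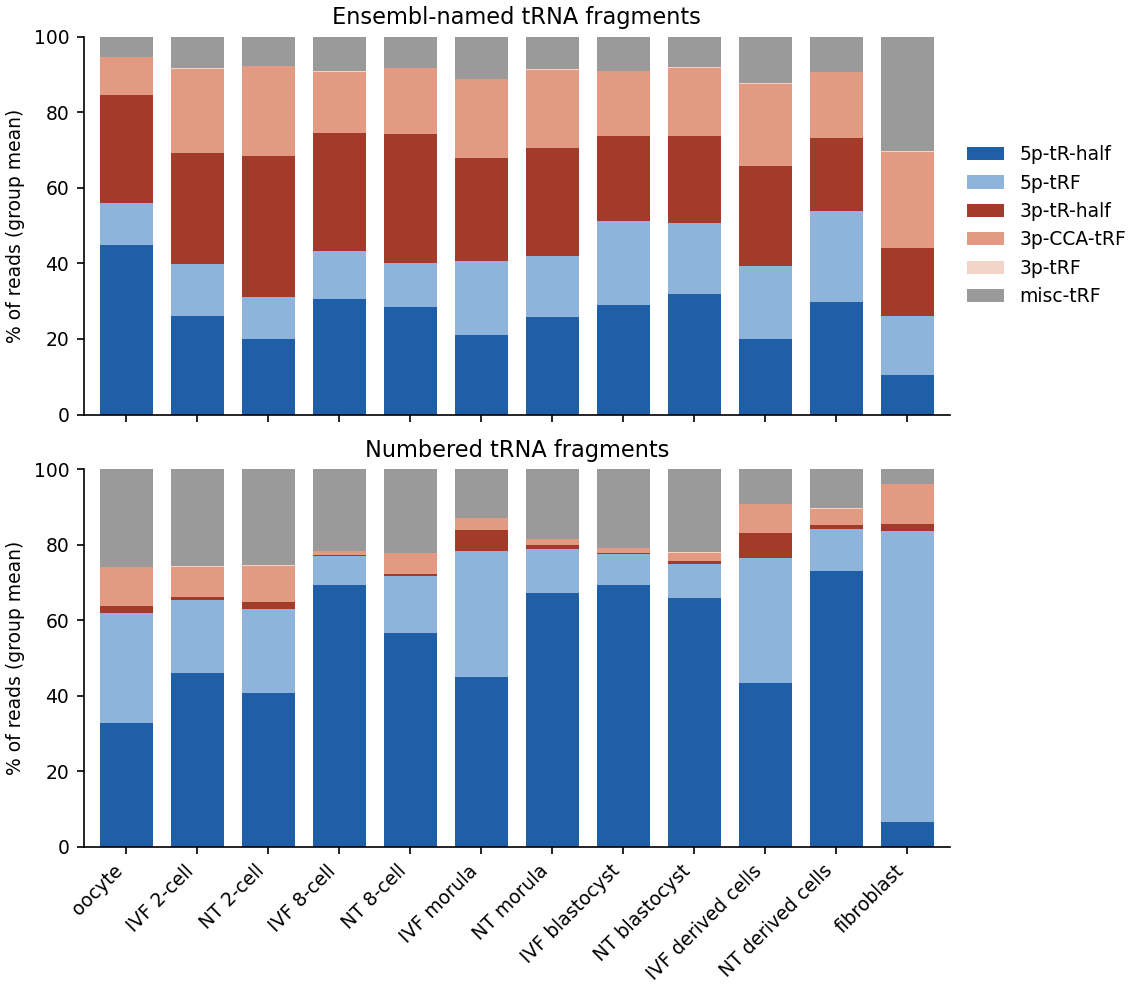
Fragment classes as a percent of reads (group means, libraries weighted equally) for the Ensembl-named fragments and for the fragments of numbered tRNAs. The 3p-tR-halves are a broad band in the upper panel, 17.9% to 37.3%, and a thin one in the lower panel, at most 6.57%.

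Parent tRNAs differed in the side their fragments came from. Over the libraries with at least 20 end-derived reads of a parent, ENSBTAG00000043545 gave only 3′ fragments (41 libraries) and has no 5′ entry in the table. ENSBTAG00000043580 gave only 5′ fragments (41 libraries) and has no 3′ entry. ENSBTAG00000043548 and ENSBTAG00000043547 have entries for both ends, yet the median share of 5′ reads was 0.383% (range 0 to 4.90%) and 1.12% (range 0 to 9.87%). In ENSBTAG00000043555 the median was 97.7% (59.4% to 100%). In ENSBTAG00000043549 it was 88.5% (28.8% to 98.6%), and in ENSBTAG00000043562 80.8% (18.9% to 98.8%). ENSBTAG00000043576 was the most even of the parents with many reads, at 56.9% (28.6% to 76.6%). The table gives no sequences, so whether ligation or reverse transcription differs between the ends was not tested.

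**Figure D3:**
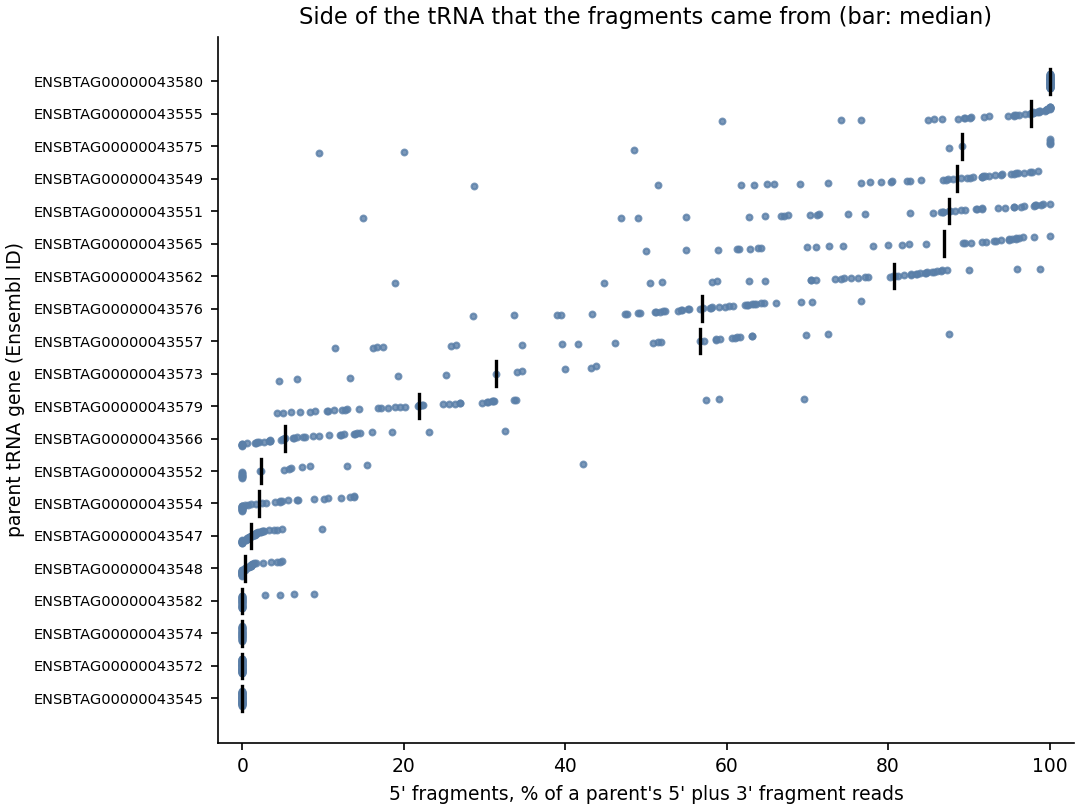
Share of 5′ fragments among the 5′ and 3′ fragment reads of each parent gene. Each point is a library with at least 20 such reads and the bar is the median. The medians run from 0% for ENSBTAG00000043545, which has no 5′ entry, to 100% for ENSBTAG00000043580, which has no 3′ entry. ENSBTAG00000043576 is near the middle at 56.9%.

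A few parents supplied a large part of the reads. The 3 highest parents of a library together held 41.6% to 62.9% of the Ensembl-named fragment reads in the group means. ENSBTAG00000043549 had the highest median share over libraries, 16.9%, followed by ENSBTAG00000043545 at 14.4%, ENSBTAG00000043562 at 9.43%, ENSBTAG00000043548 at 7.99% and ENSBTAG00000043547 at 7.39%. At the other end, ENSBTAG00000043583 and ENSBTAG00000043544 had medians of 0% and 0.0355%. The order of the 22 parents was close between the production methods of a stage: Spearman's rho over the 22 group means was 0.973 for 2-cell embryos, 0.990 for 8-cell embryos, 0.975 for morulae, 0.990 for blastocysts and 0.930 for derived cells. Between oocytes and fibroblasts it was 0.610. These values describe 22 parents in group means and carry no p.

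Oocytes stood apart through ENSBTAG00000043562, although unevenly. Its share was 24.1%, 5.46% and 57.9% in oocyte replicates 1, 3 and 4, a mean of 29.1% ± 26.6 (n = 3). In the groups of IVF and NT embryos its mean share was 7.86% to 14.4%, in fibroblasts 2.48% ± 1.49. Oocyte replicate 3 therefore lay among the embryo libraries, and the high mean rests on the other 2. In fibroblasts ENSBTAG00000043545 held 59.1%, 13.3% and 25.1% in replicates 1, 3 and 4, and led in all but replicate 3, where ENSBTAG00000043551 held 17.5%. In the same libraries ENSBTAG00000043549, first by the median over libraries, had 0.201%, 5.47% and 7.89%. ENSBTAG00000043565 held 0.577% ± 0.182 in oocytes, 0.791% to 1.10% in the 2-cell and 8-cell groups, 1.65% ± 0.608 in IVF morulae (n = 3), 3.41% ± 1.86 in NT morulae, 6.07% ± 0.620 in IVF and 7.19% ± 1.94 in NT blastocysts, and 2.26% ± 0.829 and 2.16% ± 0.763 in derived cells. All 7 blastocyst libraries (5.01% to 9.73%) were above all libraries of the other groups, the highest of which was NT morula replicate 3 at 4.90%.

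**Figure D4:**
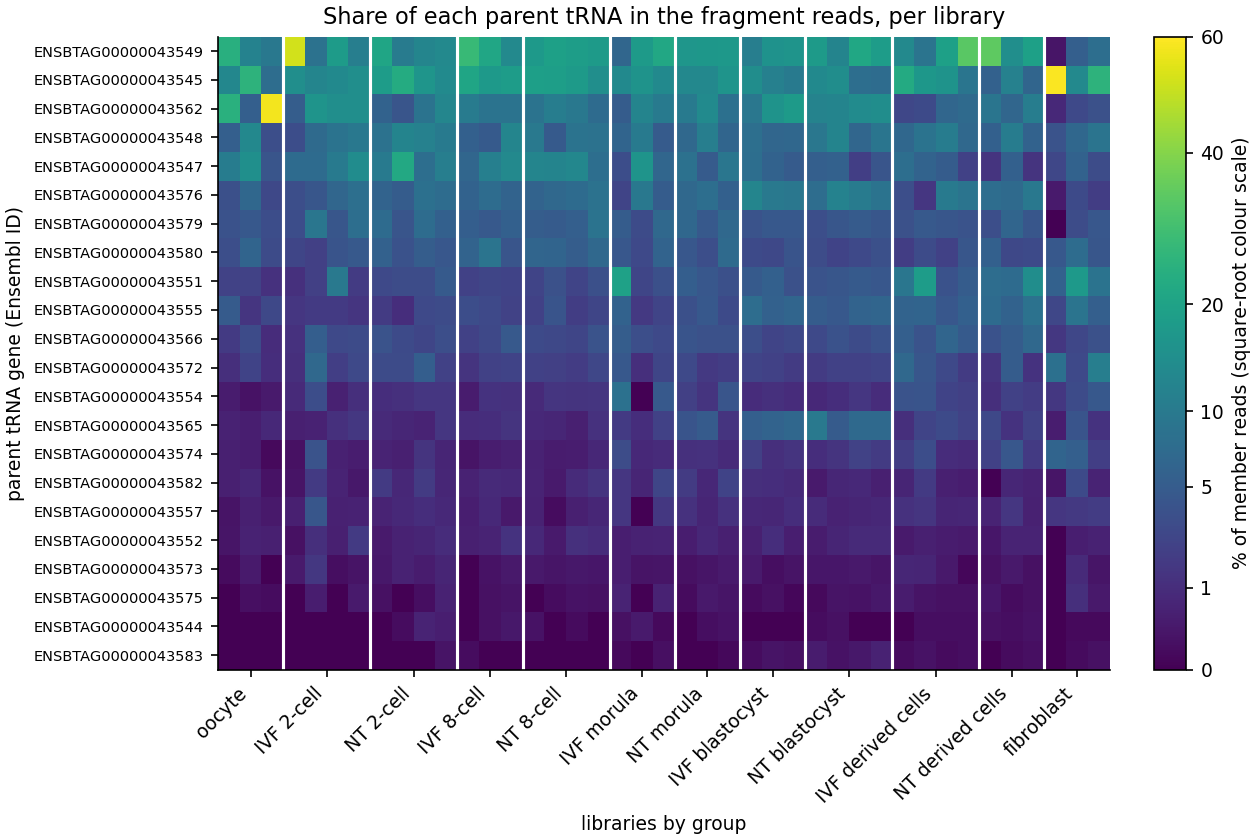
Share of each of the 22 parent genes in the Ensembl-named fragment reads of 41 libraries (IVF morula replicate 3 left out), with groups divided by white lines and colour on a square-root scale from 0 to 60%. ENSBTAG00000043562 is bright in 2 of 3 oocyte libraries, ENSBTAG00000043545 in fibroblast replicate 1 and ENSBTAG00000043565 across the 7 blastocyst libraries.

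Differences between groups were tested with limma on the deposited log2 values, in 1 fit of all 12 groups over the 12039 entries that passed a filter on low values, and called at a Benjamini-Hochberg adjusted p under 0.05. Of the 100 entries 98 passed the filter. The share of all tested entries called in the same comparison stands beside each total of this fit. Counts by fragment class, under other settings and with libraries left out are given without it. Those counts show how the calls move, and not whether the fragments differed from the other entries.

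From the 8-cell embryo to the blastocyst, fragments of ENSBTAG00000043565 and a few rarely found internal pieces rose. In IVF embryos 5 of 98 Ensembl-named fragments were called higher and 0 lower, against 17.6% of all entries called in either direction and 0.365% called higher. In NT embryos 9 were called higher and 0 lower, against 45.7% in either direction and 1.35% higher. These counts depended on the scaling: under median centring 0 were called in IVF and 41 higher and 0 lower in NT, and under voom on listed reads 16 higher and 0 lower in IVF and 38 higher and 0 lower in NT. Under voom on deposited size factors 4 were higher and 1 lower in IVF, and 5 higher and 2 lower in NT. Leaving out any 1 of the 6 IVF libraries lowered the IVF count, to 1 without 8-cell replicate 3, 2 without blastocyst replicate 3, and 3 without 8-cell replicate 2 or 4 or blastocyst replicate 2 or 4. The median change over the 98 was 0.23 in IVF and 0.00 in NT, beside -0.77 and -1.13 over all entries. Of all 12039 entries 9290 were of piRNA clusters, with 0 called higher and 1867 lower in IVF and 2 and 4658 in NT. Of 451 numbered tRNA fragments, 3 were called higher and 34 lower in IVF, and 22 and 85 in NT. Of 582 bovine miRNAs, 20 were called higher and 15 lower in IVF, and 47 and 89 in NT. Of the 5 IVF calls among the 98, 1 was a 5p-tR-half, 1 a 5′ tRF and 3 were misc-tRFs. Of the 9 NT calls, 2 were 5p-tR-halves, 3 were 5′ tRFs and 4 were misc-tRFs. Limma called no 3′ fragment in either production.

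The most abundant fragment among these was the 5p-tR-half of ENSBTAG00000043565. It had 18, 9 and 23 reads in IVF 8-cell replicates 2, 3 and 4 (40.6, 10.7 and 12.1 normalised reads) and 221, 153 and 538 reads in IVF blastocyst replicates 2, 3 and 4 (246, 179 and 235 normalised reads). In NT embryos it had 28.9, 18.7, 14.6 and 9.53 normalised reads in 8-cell replicates 1 to 4 and 383, 265, 232 and 243 in blastocyst replicates 1 to 4. NT morulae were widely spread, at 236, 158 and 23.9 normalised reads, the highest of which lay within the range of the blastocysts. IVF morula replicates 1 to 4 had 36, 9, 0 and 61 reads of it. On the deposited scaling all 4 lay below the lowest blastocyst library. No 8-cell library reached the lowest blastocyst library. The log2 change was 3.29 ± 0.94 (SE) in IVF embryos (limma, adjusted p = 0.0104) and 3.69 ± 0.81 in NT embryos (limma, adjusted p = 0.000171). Without IVF 8-cell replicate 3 the IVF change was 3.01 and was no longer called.

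In both productions it then fell in blastocyst-derived cells, to 12.1, 18.8, 21.5 and 18.8 normalised reads in IVF and 25.8, 11.6 and 9.71 in NT cells. All derived cell libraries were below all blastocyst libraries. The log2 change was -3.32 ± 0.88 in IVF (limma, adjusted p = 0.010) and -3.86 ± 0.88 in NT (limma, adjusted p = 0.00309). Without IVF blastocyst replicate 2 the IVF change was -3.23 and was no longer called. Oocytes held 15.1, 9.80 and 21.1 normalised reads.

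All 7 entries of ENSBTAG00000043565 carry a second annotation to numbered glutamine tRNAs with the TTG anticodon, so their reads cannot be assigned to 1 gene. The only other 5p-tR-half entry of a numbered GlnTTG tRNA that was tested, with no Ensembl annotation, also rose from the 8-cell embryo to the blastocyst, by 2.10 ± 0.76 in IVF (limma, adjusted p = 0.0437) and 3.13 ± 0.66 in NT embryos (limma, adjusted p = 9.28e-05). It fell in IVF derived cells, with a change of -2.66 ± 0.71 (limma, adjusted p = 0.0111), and was not called in NT derived cells, where the change was -0.62 ± 0.71 (limma, adjusted p = 1). Among the 9 tested entries with numbered GlnTTG annotations alone, this 5p-tR-half was the only one called higher in either 8-cell to blastocyst comparison, and 0 in IVF and 2 in NT were called lower.

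**Figure D5:**
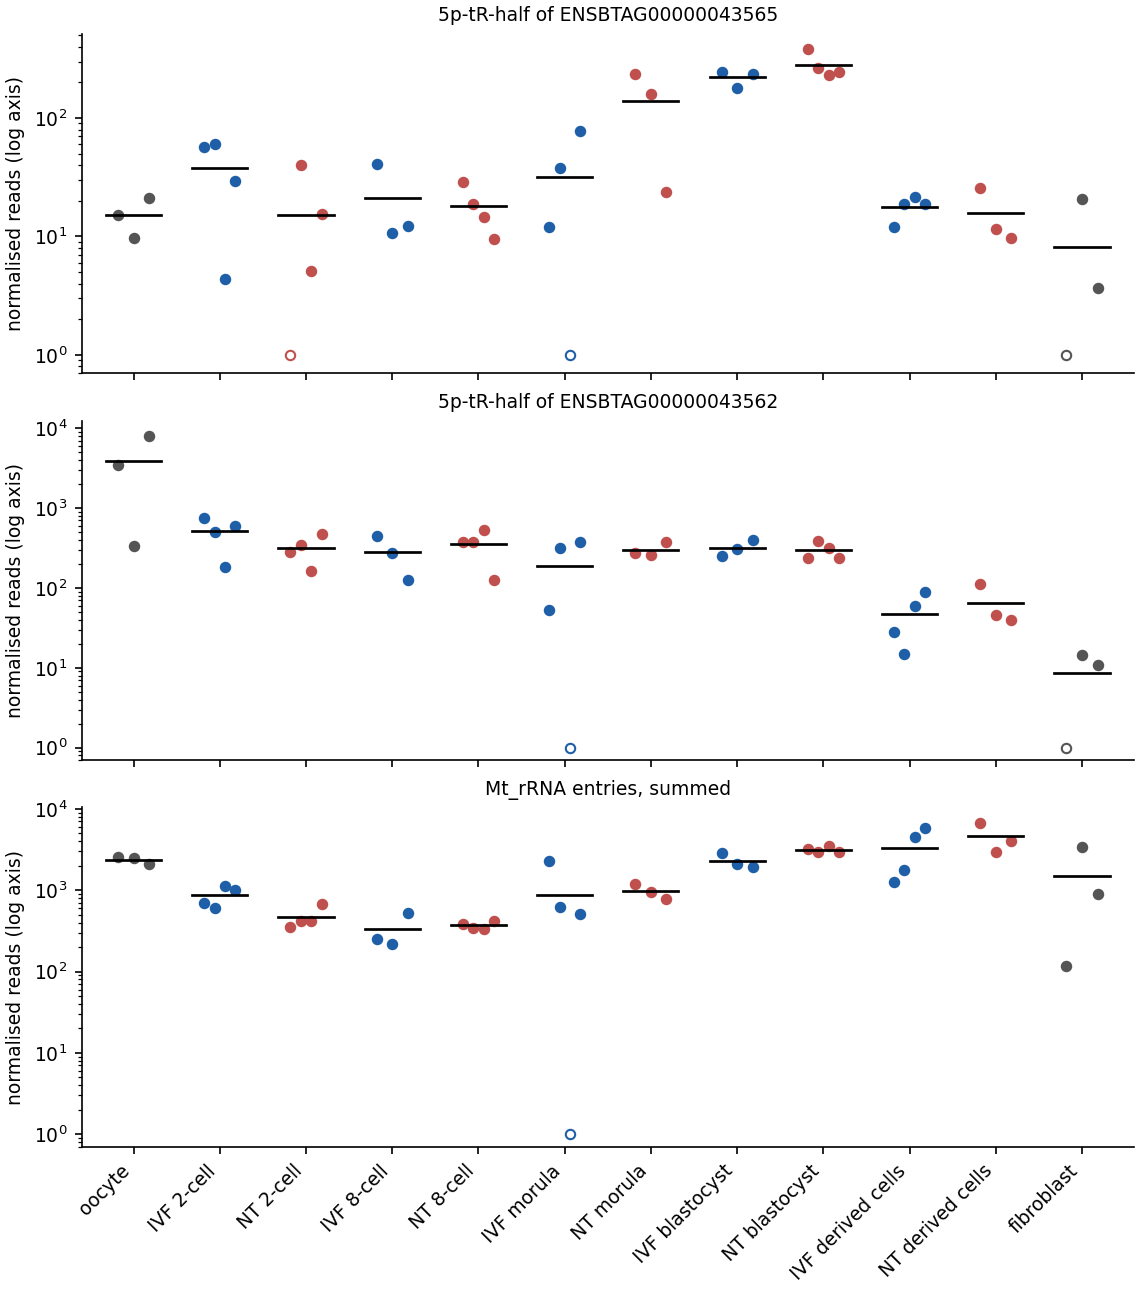
Normalised reads on log axes in each library for the 5p-tR-half of ENSBTAG00000043565, the 5p-tR-half of ENSBTAG00000043562 and the sum of 3 mitochondrial rRNA entries. Bars are group means and open points at 1 are libraries at 0. The first peaks in blastocysts, at means of 220 and 281. The second is highest in oocytes by group mean, with libraries at 333 to 7964. The lowest oocyte library lies among the embryo libraries, which reach 762 in IVF 2-cell embryos.

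The second ENSBTAG00000043565 fragment called in both productions was a 5p-tRF shared with 1 numbered tRNA. It had 2, 0 and 3 reads in the 3 IVF 8-cell libraries and 33, 19 and 21 in the 3 IVF blastocyst libraries. The change was 2.32 ± 0.82 in IVF (limma, adjusted p = 0.0400) and 2.67 ± 0.71 in NT embryos (limma, adjusted p = 0.00172). In IVF it was not called without IVF 8-cell replicate 3 or 4 or without IVF blastocyst replicate 2 or 3. The misc-tRF of ENSBTAG00000043583 was at 0 in all 3 IVF and 4 NT 8-cell libraries and in all 3 NT morulae, and had 4, 6 and 13 reads in IVF and 20, 25, 24 and 39 reads in NT blastocysts. It was called in both, with changes of 1.98 ± 0.61 (limma, adjusted p = 0.0175) and 2.91 ± 0.53 (limma, adjusted p = 8.94e-06) that depend on how 0 is coded. All entries of ENSBTAG00000043583 together had 3, 0, 0 and 6 reads in IVF morula replicates 1 to 4. A further ENSBTAG00000043565 fragment, a 5p-tRF shared with a pair of numbered tRNAs, was called in NT embryos alone. It had 3, 4, 8 and 12 reads in the 4 NT 8-cell libraries and 52, 137, 164 and 45 in the 4 NT blastocyst libraries, a change of 1.90 ± 0.75 (limma, adjusted p = 0.0328). The remaining 2 IVF calls rested on at most 7 reads in any blastocyst library, and the remaining 5 NT calls on at most 21.

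Entries of mitochondrial rRNA and of tRNA flanks were also compared over this interval. The summed entries of mitochondrial rRNA had 332 ± 171 normalised reads in IVF and 370 ± 42.3 in NT 8-cell embryos, and 2316 ± 508 and 3163 ± 281 in blastocysts. Of the 3 rRNA entries, 1 was called higher in IVF and 2 in NT embryos by limma, and 0 lower. Reads of Ensembl-named tRNA fragments per mitochondrial rRNA read were 19.3 ± 12.7 and 18.4 ± 9.68 in IVF and NT 8-cell embryos and 2.24 ± 0.256 and 1.70 ± 0.475 in blastocysts, with no overlap of libraries between the stages, as the lowest 8-cell library was at 5.74 and the highest blastocyst library at 2.41. The ratio has no test. A pair of entries, the trailer of ENSBTAG00000043582 and the leader of ENSBTAG00000043548, are annotated as flanks of a tRNA. Whether they are cut-off precursor pieces or ends of neighbouring RNAs was not tested. Together they had 0 reads in oocytes and IVF 2-cell embryos, 0 to 14 in the other libraries before the morula, and 22 to 119 in blastocysts. The leader rose in both productions, by 2.57 ± 0.82 in IVF (limma, adjusted p = 0.0218) and 2.93 ± 0.71 in NT embryos (limma, adjusted p = 0.000549).

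From the blastocyst to its derived cells, 3 of 98 fragments were called lower and 0 higher in each production. In IVF 5.17% of all entries were called in either direction and 4.24% lower. In NT the shares were 2.87% and 1.88%. The median change over the 98 was -0.67 in IVF and -0.95 in NT, beside 0.00 over all entries in both. Of all 12039 entries, 833 had a higher and 4412 a lower fitted mean in IVF derived cells, and 653 and 5076 in NT. The remaining entries had a fitted change of 0, which sets the median over all entries. Of the 98, 25 were higher and 72 lower in IVF, and 9 and 88 in NT. Leaving out 1 library gave counts of 0 to 3 in IVF, with 0 without blastocyst replicate 2 and 1 without derived cell replicate 1 or 4, and of 1 to 4 in NT, with 1 without derived cell replicate 1. Besides the 5p-tR-half of ENSBTAG00000043565, the misc-tRF of ENSBTAG00000043552 fell in both. It had 9, 19 and 28 reads in IVF blastocysts and 0, 0, 4 and 4 in IVF derived cells, a change of -2.46 ± 0.76 (limma, adjusted p = 0.0369). In NT it had 15, 60, 50 and 44 reads in blastocysts and 0, 2 and 13 in derived cells, a change of -2.78 ± 0.76 (limma, adjusted p = 0.0194). The changes kept their direction in each fit that left out 1 library. The IVF call was lost without any 1 of IVF blastocyst replicates 2, 3 and 4 and IVF derived cell replicates 1, 2 and 4, and the NT call without any 1 of NT blastocyst replicates 3 and 4 and NT derived cell replicates 1 and 3. Derived cells also carried the fibroblast marker miRNAs at 11437 to 47878 CPM of listed reads, against 312 to 678 in blastocysts. Between the same groups the cumulus list was at 55956 to 169980 CPM against 3078 to 13677, the epithelial list at 0 to 16826 against 165 to 674, and the single pluripotency miRNA at 0 to 202 against 533 to 1553. The part of cell makeup in these falls was not tested.

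Fibroblasts held much less of the abundant fragments than oocytes on the deposited scale. Of 98 fragments 28 were called lower and 0 higher, against 41.8% of all entries called in either direction and 40.4% called lower. The median change was -0.70 over the 98 and -0.97 over all entries. By class, 7 of 16 5p-tR-halves, 7 of 18 3p-tR-halves, 6 of 21 CCA-ended 3′ tRFs, 4 of 19 5′ tRFs and 4 of 20 misc-tRFs were called. Of the 12 fragments with the highest means, 11 were among them. The 5p-tR-half of ENSBTAG00000043562 had 3428, 333 and 7964 normalised reads in oocyte replicates 1, 3 and 4 and 0, 14.7 and 11.0 in fibroblast replicates 1, 3 and 4. The groups did not overlap, although the oocyte libraries differed widely, and the change was -7.83 ± 1.13 (limma, adjusted p = 2.17e-08). The 5p-tR-half of ENSBTAG00000043549 had 3503, 975 and 1139 normalised reads in oocytes and 0, 28.2 and 54.8 in fibroblasts, a change of -6.52 ± 1.31 (limma, adjusted p = 2.20e-05). The misc-tRF of ENSBTAG00000043545 was the exception, with 458, 470 and 327 normalised reads in oocytes and 262, 173 and 289 in fibroblasts, and a change of -0.80 ± 1.01 (limma, adjusted p = 0.611). Fibroblast replicate 1 held only 993 reads of the 100 entries. Scaled to all listed reads, voom on recovered reads called 5 fragments higher and 13 lower in fibroblasts, so the direction of a single fragment in this comparison holds for the deposited scaling.

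At the first cleavages few fragments were called. From the oocyte to the IVF 2-cell embryo 0 were called higher and 1 lower, against 3.03% of all entries. It was the misc-tRF of ENSBTAG00000043548, with 71, 10 and 26 reads in oocytes and 21, 7, 0 and 0 in 2-cell embryos, a change of -3.31 ± 0.91 (limma, adjusted p = 0.0245), and it was not called without oocyte replicate 1 or without IVF 2-cell replicate 3 or 4. The count became 0 without oocyte replicate 1 and 2 without oocyte replicate 4 or IVF 2-cell replicate 2. From the oocyte to the NT 2-cell embryo limma called 0 (2.43% of all entries). Unadjusted p was under 0.05 in 14 of the 98 and in 2114 of all 12039 entries. Voom on recovered reads also called 0. From the 2-cell to the 8-cell embryo limma called 0 in IVF (0.116% of all entries) and 0 in NT (0.498%). Unadjusted p was under 0.05 in 9 of the 98 in IVF, beside 1346 of all 12039 entries. In NT these numbers were 6 and 1284. Voom called 0 in both on either library size. Without oocyte replicate 3, or without NT 2-cell replicate 1, 2 or 4, the oocyte to NT 2-cell count was 2. Without IVF 2-cell replicate 3 the IVF 2-cell to 8-cell count was 2, and without NT 2-cell replicate 1 the NT count was 1. Median changes over the 98 from the 2-cell to the 8-cell embryo were -0.51 in IVF and -0.38 in NT, beside -0.11 and -0.20 over all entries.

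NT and IVF embryos of the same stage were then compared, to ask whether the fragments differ with the way the embryo was made. One fragment was called, at the 2-cell stage, where limma called 1 higher and 0 lower in NT against 2.28% of all entries. It was a misc-tRF of ENSBTAG00000043544 that is also annotated as the leader of ENSBTAG00000043551. It had 0 reads in all 4 IVF libraries and 0, 2, 12 and 21 reads in NT replicates 1 to 4, a change of 2.42 ± 0.67 (limma, adjusted p = 0.0333) whose size depends on how 0 is coded. Every entry of the table was found in NT 2-cell replicate 4, which is in the NT group of this comparison, and over all entries 260 were called higher in NT and 15 lower. The misc-tRF was no longer called without any 1 of IVF replicates 2, 3 and 4 or of NT replicates 2, 3 and 4. The 2-cell count was 0 without IVF replicate 2 or NT replicate 3 and 2 without IVF replicate 4 or NT replicate 1. In 8-cell embryos limma called 0 fragments (0.00831% of all entries). Unadjusted p was under 0.05 in 0 of the 98, beside 972 of all 12039 entries. In blastocysts it called 0 (0.00831%), with 2 at an unadjusted p under 0.05, beside 74 of all entries. In derived cells it called 0 (0% of all entries), with 0 at an unadjusted p under 0.05, beside 33 of all entries. In morulae it called 0 (0%), with 25 at an unadjusted p under 0.05 and 82 of 98 higher in NT. Of all 12039 entries, 6988 had a higher and 2354 a lower fitted mean in NT, with 1223 at an unadjusted p under 0.05. The IVF side includes replicate 1, with 0.143% of listed reads in piRNA-cluster entries, and replicate 3, in which 4 of the 100 entries were found. Without IVF morula replicate 3, 0 were called. Without IVF morula replicate 4 there were 9 calls and without IVF morula replicate 2 there were 5, all higher in NT. Voom on recovered reads called 0 fragments at any of the 5 stages, the 2-cell stage included, on either library size.

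The change from stage to stage did not pass the threshold for a difference between the productions in any fragment. The limma interaction called 0 of 98 from the 2-cell to the 8-cell embryo (0.0581% of all entries, 5 of the 98 at an unadjusted p under 0.05), 0 from the 8-cell embryo to the blastocyst (0% of all entries, 0 unadjusted) and 0 from the blastocyst to derived cells (0% of all entries, 0 unadjusted). Unadjusted counts over all entries were not taken for the interaction, and no voom fit of it was made. A threshold that was not passed does not show that the productions were alike.

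NT derived cells were also set beside the fibroblasts that had given their nuclei. Limma called 0 of 98 fragments, against 0.673% of all entries. Unadjusted p was under 0.05 in 8 of the 98 and in 344 of all 12039 entries. Voom on recovered reads called 1 higher on either library size. In share of tRNA-derived reads the Ensembl-named fragments were at 1.95% to 3.32% in the NT derived cell libraries and at 0.160% to 1.18% in the fibroblast libraries, without overlap. In share of listed reads the groups overlapped, at 0.262% to 0.729% and 0.143% to 0.670%, and so did normalised reads, at 1059 to 2045 and 578 to 1588. In fibroblast replicate 1, 89.2% of listed reads were tRNA-derived.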

How the data were processed

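The deposited table holds variance-stabilised log2 values made by the authors, 1 per annotation entry and library. The authors' tools, per the submitters' processing notes, include Trim Galore and DESeq2, with the genome builds bosTau8 and UMD3.1; versions are not given in sources used here. The transformation was inverted from the lowest value of the table (1.37 on the log2 scale), which gave whole reads for 100% of 188126 values above it (tolerance 0.01 reads, smallest value 2 reads) and a size factor per library, from 0.0787 to 13.4. Normalised reads are reads divided by these size factors, which give the deposited scaling. Precision follows depth: the libraries held 25119 to 3081186 listed reads.

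Groups came from the labels. limma 3.58.1 in R 4.3.3 fitted the log2 values of 12 groups with an intensity trend over the 12039 entries that exceeded the lowest value by 1 log2 unit in 3 libraries or more, with Benjamini-Hochberg adjustment over all of them. The fit was tested on simulated data. Named are the 12 fragments with the highest mean, the called fragments with the largest changes per comparison (at most 2 in each direction by identifier, since no table pairs the identifiers with names) and the parent genes. The 100 members and the lists were chosen with earlier results of these data known. Shares within the fragments use libraries with at least 100 member reads, and shares by side at least 20 reads of a parent. Alternatives covered filters, scaling, the groups in the fit, the replicate number as a block, single libraries and voom. No sequences are in the table, so none are shown.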

Additional observations from a re-analysis of the deposited data

Results flagged for a closer look

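In 108 combinations of a measure and a group of 4 libraries, the highest or lowest library was compared with the others by Dixon's test at the 95% level, and 9 stood apart. Chance flags about 1 in 20 independent comparisons. These 108 reuse the same libraries and have overlapping measures, so they are not independent.

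The Ensembl-named tRNA fragments made up 0.748% of listed reads in NT 2-cell replicate 2, against 0.376% to 0.418% in the other 3 libraries. Mitochondrial rRNA entries made up 0.882% of listed reads in IVF morula replicate 1, against 0% to 0.0684% in the other IVF morulae, and the same library had the high fibroblast marker level. Within the Ensembl-named fragments, 5p-tR-halves held 33.9% in NT 8-cell replicate 2 (others 26.5% to 26.9%) and 24.6% in NT blastocyst replicate 2 (others 33.7% to 35.2%). In NT 8-cell replicate 4 the share of 3p-tR-halves was 28.4% (others 35.4% to 36.6%), and the parent ENSBTAG00000043547 held 7.83% (others 12.2% to 12.9%). Misc-tRFs held 7.37% in NT blastocyst replicate 3 (others 8.26% to 8.41%). In IVF 2-cell replicate 1, the parent ENSBTAG00000043562 held 5.22% (others 14.5% to 16.1%), and the 5p-tR-half of ENSBTAG00000043549 reached 7657 normalised reads (others 376 to 1111), the highest value of this fragment in any library.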

How the results depend on the processing

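The 12 single-fragment changes that were followed, at most 2 per direction and comparison, kept their direction under every alternative run. Their calls were lost most often under median centring and under voom scaled to numbered tRNA fragments (6 of 12 each). Counts of called fragments moved more, and the cause was not tested. The share of all entries called under each alternative is not given, so the counts below are not set against it. The NT against IVF 2-cell count was 1, and 0 under median centring, with only the compared groups fitted, and under each of 4 voom fits, 2 without IVF morula replicates 1 and 3, and 0 to 2 leaving out 1 library. In morulae leaving out 1 library gave 0 to 9. From the oocyte to the IVF 2-cell embryo the count was 1, and 0 with the compared groups, without the intensity trend and under the 4 voom fits, 2 without the IVF morulae, and 0 to 2 leaving out 1 library. From the oocyte to the NT 2-cell embryo it was 0, and 1 under the stricter filter and median centring, 4 with the compared groups, 2 without the IVF morulae and 0 to 2 leaving out 1 library. From the 2-cell to the 8-cell embryo it was 0 in both, with 31 in IVF under voom scaled to numbered fragments, 2 in NT under median centring, and 0 to 2 (IVF) and 0 to 1 (NT) leaving out 1 library. From the 8-cell embryo to the blastocyst the IVF count of 5 became 3 under the stricter filter, 0 under median centring, 16 with the compared groups (15 higher, 1 lower), 9 without the IVF morulae, 16 under voom on listed reads, 1 under voom scaled to numbered fragments and 1 to 3 leaving out 1 library. The NT count of 9 became 41, 21 (19 higher, 2 lower), 38 and 5 under median centring, compared groups, voom on listed reads and voom scaled to numbered fragments, and 6 to 9 leaving out 1 library. From the blastocyst to derived cells the IVF count of 3 became 1 under median centring, 24 with the compared groups, 8 without the IVF morulae, 30, 23 and 6 under voom on listed reads, deposited size factors and member reads, and 0 to 3 leaving out 1 library. The NT count of 3 became 1, 51 and 11 under the first 3 of these, 33, 10 and 7 under voom on listed reads, deposited size factors and numbered fragments, and 1 to 4 leaving out 1 library. The oocyte to fibroblast count of 28 became 18 under voom on listed reads, 67 on deposited size factors, 16 scaled to member reads (11 higher, 5 lower) and 86 scaled to numbered fragments, and 19 to 29 leaving out 1 library. From fibroblasts to NT derived cells the count of 0 became 1 with the compared groups, 4 without the IVF morulae, and 1, 1 and 6 under voom on listed reads, size factors and numbered fragments. The summed share was 0.978 percentage points higher in IVF blastocysts than in oocytes (0.599 to 1.17 leaving out 1 library) and 1.55 points higher in NT blastocysts (1.37 to 1.72). As a share of tRNA-derived reads the differences were -13.4 and -12.3 points, and in normalised reads -9680 and -9540. With the replicate number as a block the blastocyst to derived cell count was 1 in IVF and the oocyte to NT 2-cell count 2, and no other count moved by over 1.5 times. Same-numbered NT and IVF libraries did not pair throughout: 7 of 16 pairs correlated above 0.1, in 0 of 5 stages did every pair, and 7 of 16 libraries correlated best with their own number. The 4 voom fits and the scale of normalised reads were chosen after seeing the data. Planned edgeR fits with TMM and RLE factors were not run, since the deposited values are log2. The wider rule that takes an Ensembl tRNA fragment in any annotation gave the same 100 entries. Fragments under about 10 reads are close to the smallest listed value, and for them a difference was often not detectable at this depth.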
